A study of Mus musculus with 21 samples.

Results

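Mitochondrial ribosomal proteins are the protein part of the ribosome that works inside mitochondria. They were taken as the protein-coding genes whose symbol starts with Mrpl (large subunit) or Mrps (small subunit) followed by a digit and that had 10 or more counts in at least 3 of the 21 columns of the count table. This gave 77 of the 54532 genes in the table. Of the 78 protein-coding genes with such symbols 1 was left out, Mrpl53, which was listed at 0 in every column, and the member counted in the fewest columns was Mrpl22, with 10 or more counts in 19. A further 5 genes with such symbols are pseudogenes and were not taken. Among them, Mrpl23-ps1 reached 10 counts in all 21 columns, with at most 213, and Mrps36-ps1 in 7 columns, with at most 21. Reads of Mrpl23 and Mrps36 are therefore less certain. Pseudogenes under other kinds of symbols were not searched, so the other members are not shown to be free of this. All 77 members also passed the filter on low counts used for testing. By position in the ribosome they were 30 large subunit proteins with a bacterial counterpart, 20 large subunit proteins particular to mitochondria, 16 small subunit proteins with a bacterial counterpart and 10 small subunit proteins particular to mitochondria. The remaining member, Mrps36, carries a small subunit symbol but is now known as a component of the 2-oxoglutarate dehydrogenase complex. Mrps30 and Mrps18a were counted with the large subunit, where their proteins are now placed.

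The mitochondrial ribosome translates only the mRNAs of the mitochondrial genome, which code for core subunits of the respiratory chain and of ATP synthase. Its ribosomal RNAs are made from the same genome, whereas all of its proteins are encoded in the nucleus, translated in the cytosol and imported, so that building it needs output from both genomes. In macrophages, oxidative phosphorylation is known for its role in alternative activation, and inflammatory activation is known for a shift to glycolysis.

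RNA sequencing was done on myeloid cells that were sorted by flow cytometry after collagenase digestion of adipose tissue, from male C57BL/6 mice given a high fat diet (obese) or a normal diet (lean) for 16 weeks. The 7 groups held 3 libraries each: MHCII-low macrophages, lean and obese; MHCII-positive CD11c-negative macrophages, lean and obese; MHCII-positive CD11c-positive macrophages, obese; and monocyte-derived cells, lean and obese. No transgene, deleted gene or drug is named for any group. Nothing in the labels ties a replicate to an animal of its own, so the p-values below measure the spread between these libraries, which may be technical, and in sorted bulk cells fewer cells of a type cannot be told apart from less RNA per cell.

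Library totals were between 11245851 and 35568948 counts, and the median count of a member in a library was between 59 and 353. The macrophage marker Adgre1 averaged between 406 and 1039 CPM (the usual count rate scaled to library size) in the 5 macrophage groups and 112 and 225 in lean and obese monocyte-derived cells. Itgax, which codes for CD11c, averaged 586 CPM in CD11c-positive macrophages, 16.7 and 85.0 in lean and obese CD11c-negative macrophages, and 319 and 340 in lean and obese monocyte-derived cells. The lean monocyte-derived libraries stood apart: 67.1% to 82.5% of their counts were in protein-coding genes, against 76.9% to 84.0% elsewhere, and the summed level of 1733 olfactory and vomeronasal receptor genes was 314 to 1172 CPM, against 23.3 to 239 elsewhere. In the obese groups the library numbered 2 had the highest sum of 8 fibroblast markers, 1941 to 2730 CPM, against 849 to 1478 in the other obese libraries. The part of these features in the results below was not tested. Values without single libraries, or without the obese libraries numbered 2, are given beside the counts they change. Where such a count stands without a share of all tested genes, it does not show whether the change is particular to the members. The same holds for counts of members with an unadjusted p under 0.05.

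The members were expressed at low to moderate levels, with means over all libraries from 1.87 to 24.6 CPM. Per length, as CPM per kilobase of exon averaged over all libraries, the highest levels were those of Mrpl54 (14.1), Mrps21 (13.6) and Mrps28 (11.6), and the lowest those of Mrps35 (0.632), Mrpl47 (0.670) and Mrpl13 (0.859). The length used is that of all annotated exons of a gene together, which need not be that of its expressed mRNA. It was 825, 739 and 783 bases for the highest genes and 8631, 4419 and 7936 for the lowest, in the order named. Differences in RNA level per length between these genes can therefore not be told apart from differences in annotated length. Between the highest and the lowest group mean, on the log2 scale, the widest ranges were those of Mrpl34 (2.86), Mrpl44 (2.85), Mrpl22 (2.61) and Mrpl12 (2.15), and the narrowest those of Mrpl9 (0.43), Mrpl17 (0.57), Mrps6 (0.58) and Mrpl24 (0.58). CD11c-positive macrophages had the highest mean of the 7 groups for 66 of the 77 members. The lowest mean was in lean MHCII-low macrophages for 29 members, in lean CD11c-negative macrophages for 24 and in lean monocyte-derived cells for 24. The SD between the 3 libraries of a group on the log2 scale, as a median over members, was 0.41 in lean monocyte-derived cells, 0.19 and 0.24 in lean MHCII-low and CD11c-negative macrophages, and 0.12 to 0.15 in the 4 obese groups.

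Summed over the 77 members, the level per library, as CPM of the library total, was 537, 449 and 529 in lean MHCII-low macrophages and 667, 744 and 767 in obese ones. In CD11c-negative macrophages the sums were 486, 548 and 433 in lean and 674, 713 and 750.1 in obese libraries. In both macrophage populations every obese library was above every lean library. CD11c-positive macrophages had the highest sums, 815, 921 and 904, each above all other libraries of the series. Monocyte-derived cells had sums of 616, 691 and 523 in lean and 752, 681 and 751 in obese libraries. The diets overlapped here on the scale of the library total, which need not hold on another scale. Taken as CPM of the counts in protein-coding genes, the mean was 817 ± 33.6 (SD, n = 3) in lean and 925 ± 34.5 in obese monocyte-derived cells, 631 ± 46.7 and 881 ± 54.1 in MHCII-low and 614 ± 54.6 and 869 ± 33.7 in CD11c-negative macrophages. Both subunits were higher with the high fat diet: the large subunit sum averaged 346 and 500.0 CPM in lean and obese MHCII-low macrophages, and the small subunit sum 156 and 220.4. Not all other translation genes had the members' order of groups. Cytosolic ribosomal proteins (86 genes) averaged 7461 CPM in lean MHCII-low macrophages, 12811 in CD11c-positive macrophages and 14545 in obese monocyte-derived cells, where they were highest. The 13 mRNAs of the mitochondrial genome, which the mitochondrial ribosome translates, also had their highest group mean in CD11c-positive macrophages, 12031 CPM. Unlike for the members, the libraries overlapped with other groups. CD11c-positive replicate 1 (9491) was below obese CD11c-negative replicates 2 and 3 (9851 and 11041), among others. These mRNAs averaged 6176 and 6518 CPM in lean and obese monocyte-derived cells. Mitochondrial translation factors (14 genes) also averaged highest in CD11c-positive macrophages, at 200.5 CPM, against 159.7 and 186.1 in lean and obese MHCII-low ones.

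**Figure D1:**
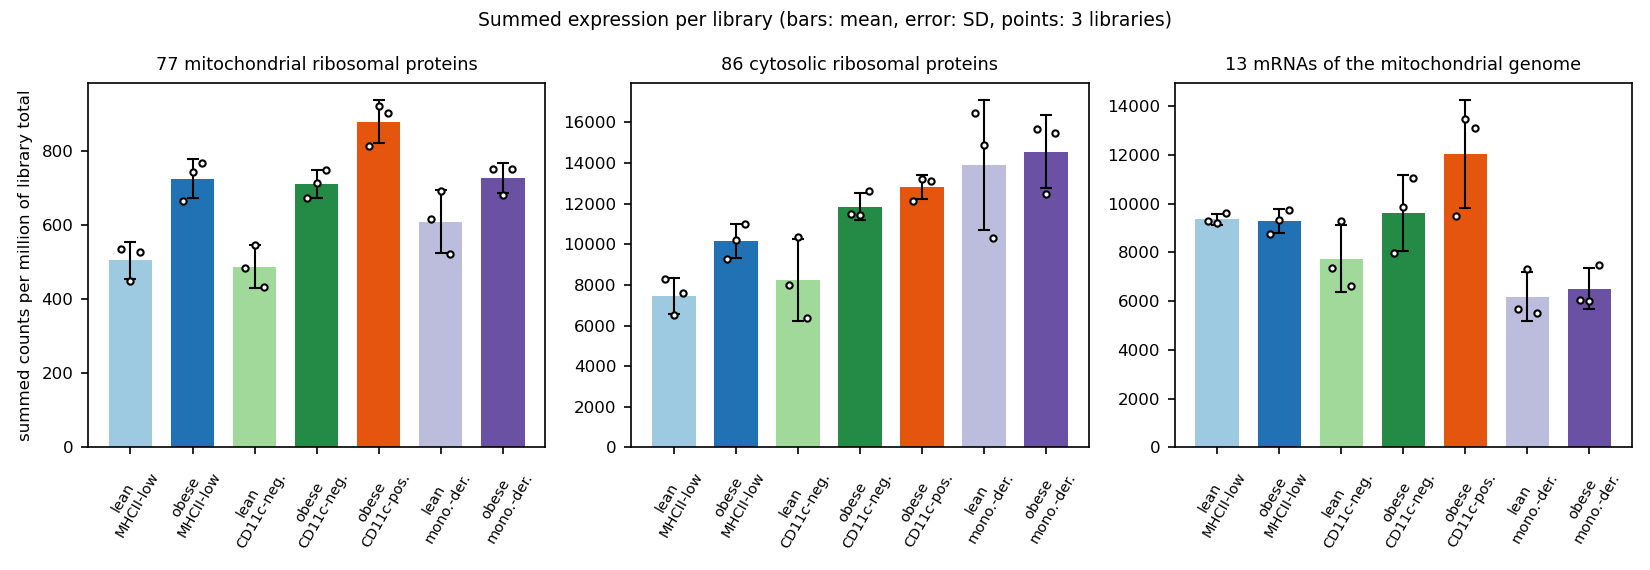
Summed CPM of the library total for the 77 mitochondrial ribosomal proteins, 86 cytosolic ribosomal proteins and 13 mRNAs of the mitochondrial genome in the 7 groups; bars are means, error bars SDs and points the 3 libraries of each group. The mitochondrial ribosomal proteins are highest in obese CD11c-positive macrophages (815 to 921) and higher in obese than in lean libraries of both other macrophage populations. The cytosolic proteins have their highest group means in monocyte-derived cells, but lean monocyte-derived replicate 3 (10312) is below every CD11c-positive library (12117 to 13205).

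In MHCII-low macrophages, 44 of the 77 members rose in obese mice and none fell, at an adjusted p under 0.05 in edgeR's quasi-likelihood test with Benjamini-Hochberg adjustment over all 22935 genes tested. Of all tested genes 16.8% were called higher and 13.8% lower, and of the 6132 protein-coding genes within the members' range of mean level 27.3% were called higher. The median log2 change, obese minus lean, was 0.60 over the members, against -0.07 over all tested genes and 0.22 over the protein-coding genes of like level. All 77 fitted changes were above 0, from 0.02 to 2.06. For 66 members all 3 obese libraries were above all 3 lean libraries, which held for 26.0% of all tested genes. Both subunits took part: 17 of 30 large subunit proteins with a bacterial counterpart, 13 of 20 particular to mitochondria, 7 of 16 small subunit proteins with a bacterial counterpart and 6 of 10 particular to mitochondria were called, and so was Mrps36. Of the 45 members that share no exon base with another gene 24 were called, and of the other 32 members 20. In the same libraries the sum of 25 cell cycle genes, such as Mki67 and Top2a, was 417 ± 44.8 CPM in lean and 921 ± 20.1 in obese MHCII-low macrophages, with 24 of the 25 called higher, and its part in the members' change was not tested. Leaving out lean MHCII-low replicate 2 left 22 members called, obese replicate 2 left 24 and obese replicate 3 left 23. Leaving out the library numbered 2 in every obese group left 17. 17 members were called in each of the 6 fits that left out 1 library, among them Mrpl44, Mrpl45, Mrpl52, Mrps2, Mrps23 and Mrps36.

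Among the large subunit proteins, Mrpl44 had the largest change. Its protein has the fold of a ribonuclease III, and the gene lies on chromosome 1 from 79776018 to 79781445 (plus strand, GRCm38). It measured 0.822, 0.340 and 0.906 CPM in the lean MHCII-low libraries and 2.40, 3.40 and 2.97 in the obese ones. Every obese library was above every lean one, at a low level: the lean replicates 1, 2 and 3 held 18, 7 and 21 counts. The log2 change was 2.06 ± 0.32 (SE, adjusted p = 0.000115). The gene shares 126 exon bases with Wdfy1 on the other strand, and because the sources used here give no strand setting for the counting, reads of genes that overlap on opposite strands cannot be told apart. The same holds for 27 members in all, of which Mrpl3, Mrpl9, Mrpl12, Mrpl13, Mrpl14, Mrpl24, Mrpl27, Mrpl47, Mrpl58, Mrps7, Mrps18b, Mrps26 and Mrps30 are named without further remark. Mrpl45, a protein related to the import factor Tim44 that sits near the exit of the peptide tunnel, measured 5.57, 3.93 and 5.18 CPM in lean and 9.73, 11.4 and 10.9 in obese libraries. The groups were far apart relative to their spread, and the log2 change was 1.12 ± 0.16 (SE, adjusted p = 3.47e-05). Mrpl52, particular to mitochondria, measured 4.34, 3.54 and 4.49 CPM in lean and 8.42, 8.85 and 8.97 in obese libraries. All 3 obese values were close together and about double the lean ones, with a log2 change of 1.08 ± 0.23 (SE, adjusted p = 0.00158). Mrpl34, a small protein with a bacterial counterpart, measured 3.97, 3.06 and 4.19 CPM in lean and 7.42, 10.4 and 12 in obese libraries. Its obese libraries were all higher but spread more widely, with a log2 change of 1.41 ± 0.36 (SE, adjusted p = 0.00627). Mrpl12, the stalk protein that recruits translation factors and also binds the mitochondrial RNA polymerase, measured 5.76, 5.63 and 5.18 CPM in lean and 9.64, 11.3 and 11.4 in obese libraries. They did not overlap, and the log2 change was 0.96 ± 0.32 (SE, adjusted p = 0.0301). Mrpl19 (1.13 ± 0.18), Mrpl43 (1.05 ± 0.25) and Mrpl18 (1.05 ± 0.20) were the other large subunit members among the 12 largest log2 changes. They share exon bases on opposite strands with Gcfc2, Twnk and Tcp1.

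Of the small subunit proteins, Mrps23, particular to mitochondria and on chromosome 11 from 88204388 to 88211507 (plus strand), measured 6.30, 5.19 and 5.83 CPM in lean and 10.6, 12.7 and 12.9 in obese MHCII-low libraries. The obese values stood well clear of the lean ones, and the log2 change was 1.06 ± 0.14 (SE, adjusted p = 2.48e-05). Mrps2, which has a bacterial counterpart, measured 5.44, 3.93 and 4.49 CPM in lean and 8.42, 10.3 and 9.13 in obese libraries. The groups did not overlap, and the log2 change was 1.00 ± 0.22 (SE, adjusted p = 0.00262). Mrps31 changed by 1.00 ± 0.25 (SE, adjusted p = 0.00522). Mrps36, the dehydrogenase component, measured 2.92, 2.18 and 2.98 CPM in lean and 5.17, 5.76 and 6.26 in obese libraries, again without overlap, and changed by 1.08 ± 0.23 (SE, adjusted p = 0.00182). Among proteins with known special roles, Mrpl58, a peptidyl-tRNA hydrolase that frees stalled ribosomes, changed by 0.68 ± 0.22 (SE, adjusted p = 0.0243) and Mrps30 by 0.60 ± 0.14 (SE, adjusted p = 0.00372). Mrps12, a protein of the decoding centre, was not called (0.57 ± 0.23 (SE, adjusted p = 0.0604)). The 3 paralogs Mrps18a, Mrps18b and Mrps18c were not called either, with log2 changes of 0.36, 0.28 and 0.56.

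CD11c-negative macrophages showed a like response to the diet: 45 of 77 members rose and none fell, against 16.8% of all tested genes called higher and 15.6% lower. The median log2 change over members was 0.65, against -0.10 over all tested genes and 0.20 over protein-coding genes of like level, of which 27.8% were called higher. The fitted change was above 0 for 76 members, with a range from -0.08 to 2.28. All 3 obese libraries were above all 3 lean ones for 59 members, against 25.1% of all tested genes. By class, 21 of 30 and 11 of 20 large subunit proteins (with a bacterial counterpart and particular to mitochondria) and 7 of 16 and 5 of 10 small subunit proteins were called, besides Mrps36. Cell cycle genes again moved with the members, from 508 ± 62.9 to 941 ± 89.8 CPM, with 23 of 25 called higher, and their part was not tested. The count was 27 without lean CD11c-negative replicate 3, 28 without obese replicate 3 and 27 without the library numbered 2 in every obese group. 26 members were called in each of the 6 fits without 1 library.

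Mrpl44 measured 0.475, 0.695 and 0.458 CPM in lean and 2.45, 3.07 and 2.47 in obese CD11c-negative libraries. As in MHCII-low macrophages the diets did not overlap, and the log2 change of 2.28 ± 0.33 (SE, adjusted p = 4.34e-05) was the largest of the members. Mrpl22, whose bacterial counterpart lines the peptide tunnel, measured 1.15, 0.966 and 0.275 CPM in lean and 2.14, 3.17 and 2.59 in obese libraries. Lean replicate 3, with only 6 counts, was the lowest of these libraries. No lean value reached an obese one, and the log2 change was 1.70 ± 0.42 (SE, adjusted p = 0.00421). Mrpl52 measured 4.63, 7.11 and 3.71 CPM in lean and 11.9, 11.4 and 14.4 in obese libraries. The highest lean library, replicate 2, stayed below all obese libraries, and the log2 change was 1.28 ± 0.22 (SE, adjusted p = 0.000241). Mrpl14, the docking site of the assembly factor Malsu1, changed by 1.39 ± 0.36 (SE, adjusted p = 0.00634), and Mrpl40 by 1.14 ± 0.24 (SE, adjusted p = 0.00119). In the small subunit Mrps2 measured 4.90, 4.83 and 4.39 CPM in lean and 10.7, 9.93 and 11.4 in obese libraries. The obese values were all at least double the lean ones, and the log2 change was 1.18 ± 0.22 (SE, adjusted p = 0.000553). Mrpl34 (1.09 ± 0.36), Mrpl12 (1.03 ± 0.32), Mrps36 (1.02 ± 0.23), Mrpl42 (0.98 ± 0.21), Mrpl19 (0.98 ± 0.18) and Mrpl43 (0.96 ± 0.25) completed the 12 largest log2 changes. Mrps12, not called in MHCII-low macrophages, changed here by 0.77 ± 0.23 (SE, adjusted p = 0.0148), and Mrpl58 and Mrps30 were called in this population too, by 0.78 and 0.57.

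The calls of both populations come from different libraries, but obese libraries with the same number deviated together across populations (correlations of 0.108 to 0.778 over 7909 genes). They shared 37 members, which is 84.1% of the 44 called in MHCII-low and 82.2% of the 45 called in CD11c-negative macrophages. Over all tested genes the 3085 called higher in both were 79.8% and 80.3% of the calls, so that the overlap of the members was near that of all genes. 7 members were called in MHCII-low macrophages alone, 8 in CD11c-negative macrophages alone and 25 in neither. A call in one population alone does not show a difference: the test of the difference between both diet effects called 0 members, 0.00% of all tested genes in each direction, and 0 members had an unadjusted p under 0.05. DESeq2 also called 0. The median of these differences over the members was 0.03.

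**Figure D2:**
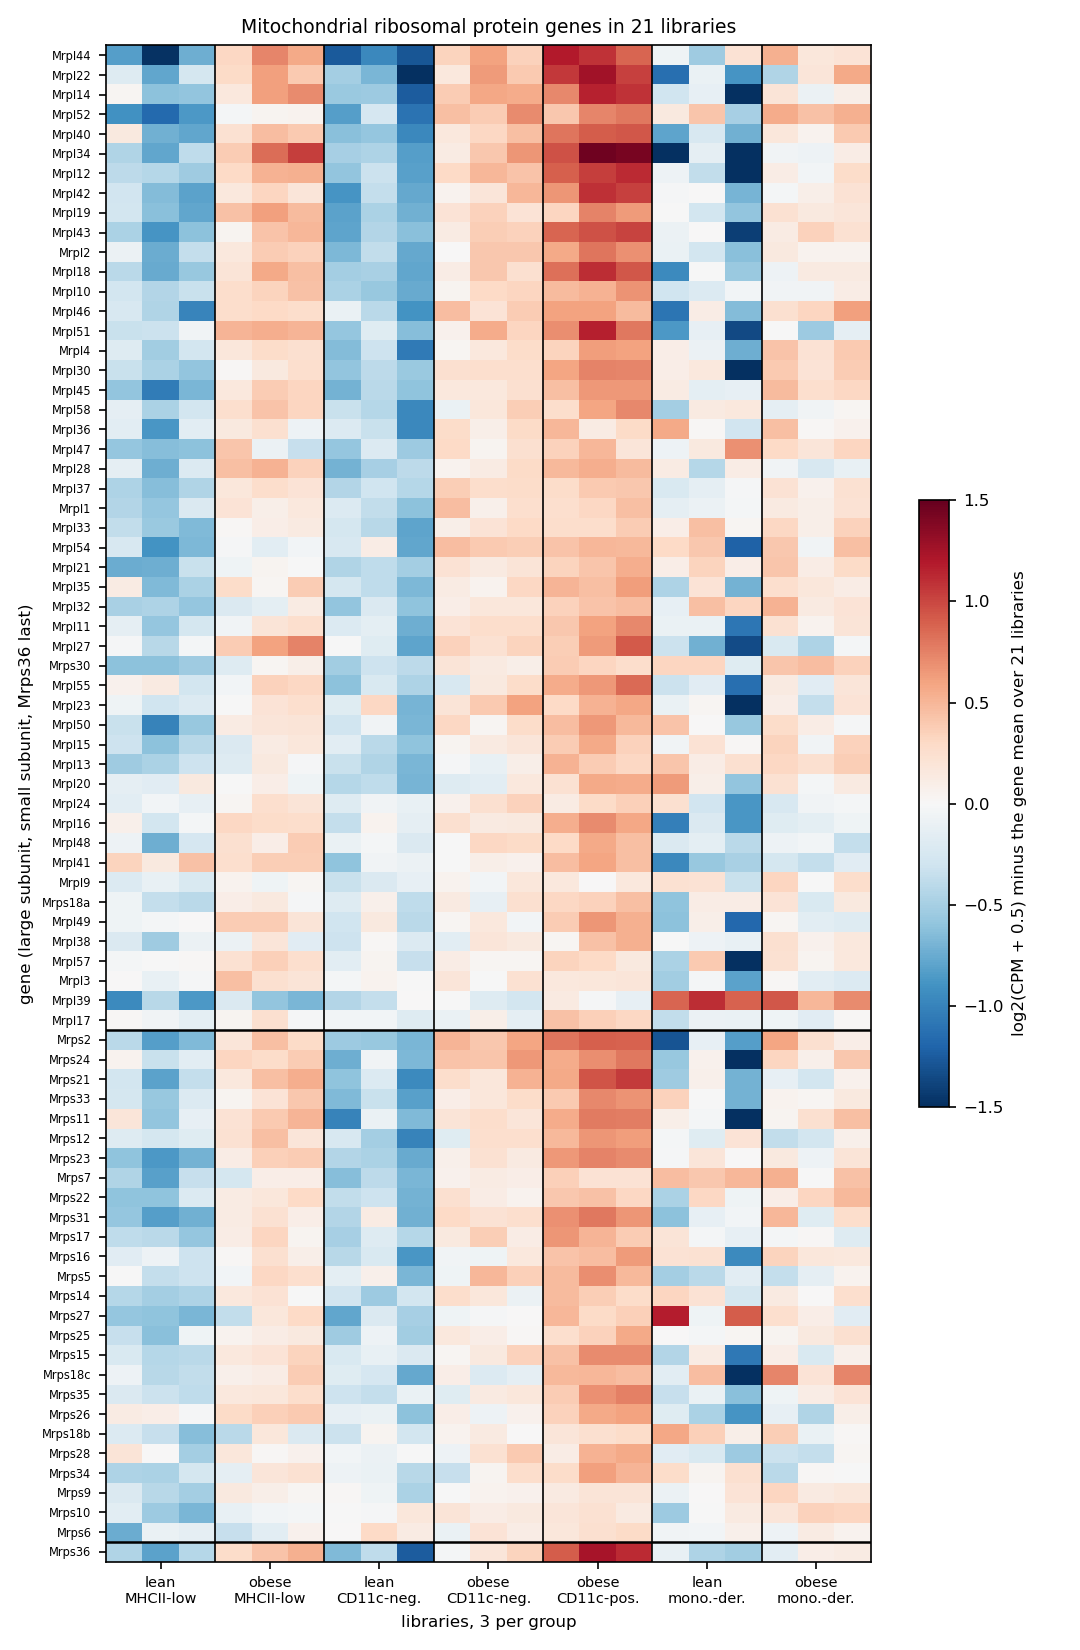
Level of each of the 77 members in each of the 21 libraries, as log2(CPM + 0.5) minus the mean of that gene over all libraries; columns are libraries in order of group, rows are genes by subunit and by their diet effect in CD11c-negative macrophages, and colours end at -1.5 and 1.5. Lean MHCII-low and lean CD11c-negative columns are mostly blue (low), obese CD11c-positive columns are the reddest, and the lean monocyte-derived columns differ among themselves.

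Some members had small log2 changes with the diet. Mrps6, which has a bacterial counterpart, measured 6.71, 10.7 and 10.5 CPM in lean and 9.0, 10.3 and 12.2 in obese MHCII-low libraries, and 11.6, 14.4 and 12.7 and 10.7, 13.4 and 12.5 in lean and obese CD11c-negative libraries. The diets overlapped in both populations, with log2 changes of 0.17 and -0.08 (adjusted p = 0.444 and 0.74). This gene shares exon bases with Slc5a3 on the same strand, so its counts may be split. Mrpl17 had log2 changes of 0.15 and 0.05, Mrpl9 of 0.20 and 0.30, and Mrpl24 of 0.27 and 0.35 in MHCII-low and CD11c-negative macrophages, and none of these was called. A missed call does not show that these genes were equal between diets.

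In monocyte-derived cells, 5 members rose in obese mice and none fell, against 7.44% of all tested genes called higher and 9.76% lower. The share of members called, 5 of 77, was thus near that of all tested genes. The median log2 change was 0.30, against -0.05 over all tested genes, and 66 fitted changes were above 0, within a range from -0.74 to 1.12. All obese libraries were above all lean ones for 25 members, against 13.2% of all tested genes, and below for 1 member, against 13.6%. The 5 members called, Mrps2, Mrpl4, Mrpl34, Mrpl40 and Mrpl46, also rose in both macrophage populations. Mrps2 measured 2.72, 6.71 and 3.94 CPM in lean and 11.4, 8.82 and 7.93 in obese monocyte-derived libraries. All obese values were above the highest lean one, replicate 2, and the log2 change was 1.06 ± 0.23 (SE, adjusted p = 0.00528). Mrpl34 measured 1.04, 5.07 and 1.29 CPM in lean and 5.37, 5.31 and 6.11 in obese libraries. Lean replicates 1 and 3 were far below replicate 2, which nearly reached the obese values, and the log2 change was 1.12 ± 0.38 (SE, adjusted p = 0.0457). Mrpl46 changed by 0.93 ± 0.28 (SE, adjusted p = 0.0301), Mrpl40 by 0.84 ± 0.24 (SE, adjusted p = 0.0228) and Mrpl4, a tunnel protein, by 0.56 ± 0.19 (SE, adjusted p = 0.0469). Mrpl46 shares 173 exon bases with the member Mrps11 on the other strand. The count rested on single libraries of both diets: it was 27 without lean monocyte-derived replicate 2 and 1 without lean replicate 3. With obese replicate 2 left out it was 14, with obese replicate 3 left out 3, and without the library numbered 2 in every obese group 2. These counts of members are not set against the share of all genes called in the same fits. Lean replicate 2 also stood apart in the sum of 8 macrophage markers, with 6615 CPM, against 2425 and 1767 in the other lean libraries and at most 4865 in the obese ones, and the part of this was not tested. Mrps2 was called in each of the 6 fits that left out 1 library. With the spread estimated from the lean and obese monocyte-derived libraries alone, 0 members were called. Cell cycle genes summed to 618 ± 45.2 CPM in lean and 735 ± 32 in obese monocyte-derived cells, with 6 of 25 called higher.

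**Figure D3:**
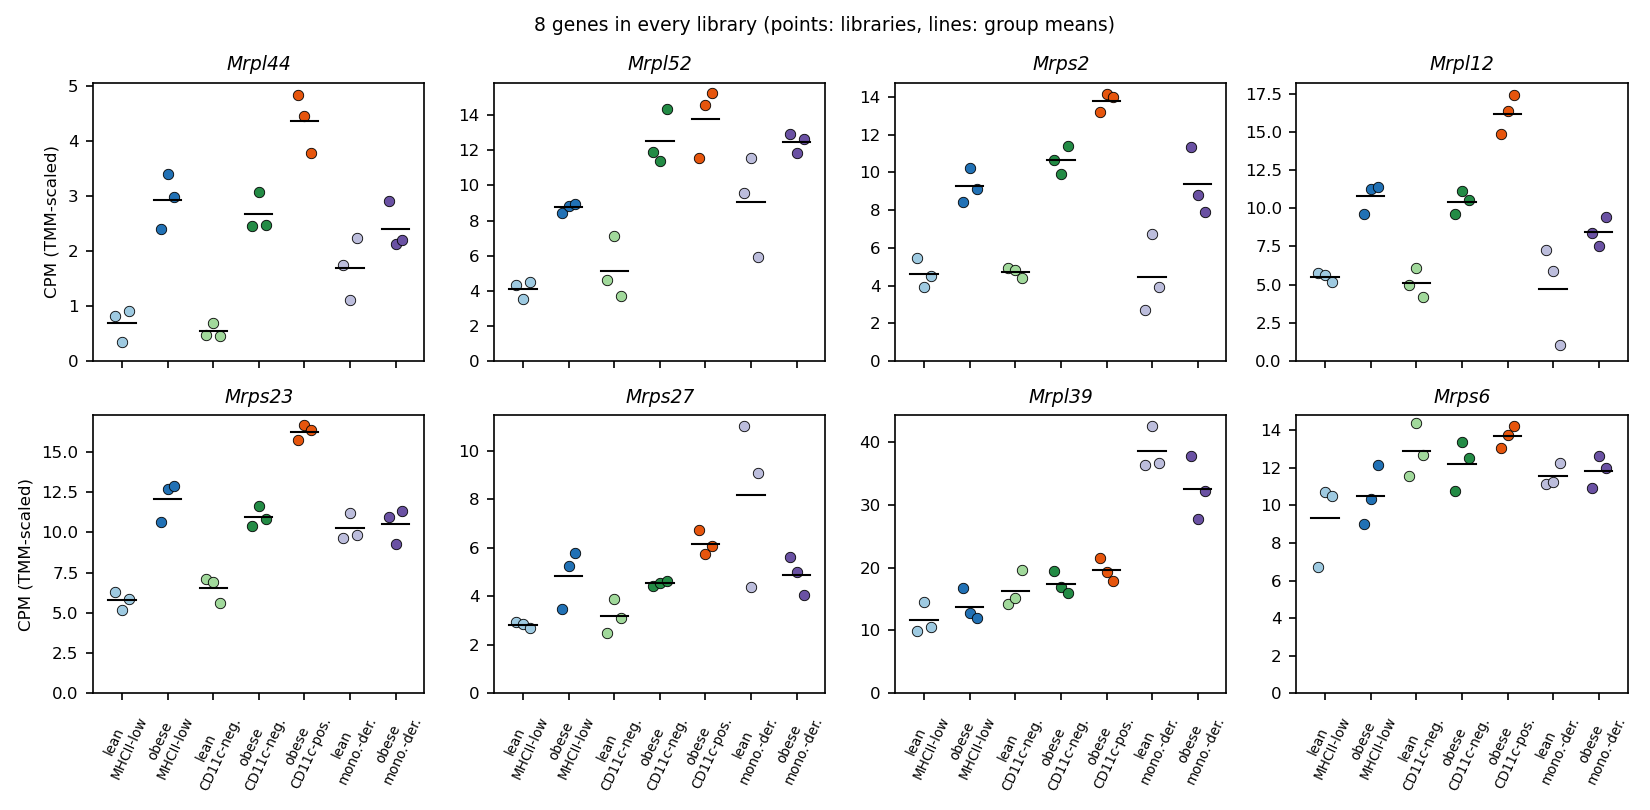
CPM of Mrpl44, Mrpl52, Mrps2, Mrpl12, Mrps23, Mrps27, Mrpl39 and Mrps6 in every library; each point is 1 library, lines are group means and each position on the horizontal axis is 1 of the 7 groups. Mrps2 is higher in obese than in lean libraries of all 3 populations, Mrps23 is not in monocyte-derived cells, Mrpl39 is highest in monocyte-derived cells, and Mrps6 hardly differs between groups.

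The difference between the diet effect in monocyte-derived cells and that in MHCII-low macrophages was below 0 and called for 3 members, Mrps23, Mrps27 and Mrpl28, and above 0 for none, against 2.43% and 1.90% of all tested genes. The median difference over the members was -0.30. An unadjusted p under 0.05 was found for 19 members, a count not set against the share of all tested genes. Mrps23 measured 9.65, 11.2 and 9.86 CPM in lean and 10.9, 9.28 and 11.3 in obese monocyte-derived libraries. The diets overlapped there, unlike in MHCII-low macrophages, and the difference of log2 changes was -1.03 ± 0.20 (SE, adjusted p = 0.00493). Mrps27, which has pentatricopeptide repeats, measured 11, 4.40 and 9.09 CPM in lean and 5.60, 4.99 and 4.05 in obese monocyte-derived libraries. Lean replicates 1 and 3 were higher than any obese library and lean replicate 2 was within their range. In MHCII-low libraries Mrps27 measured 2.92, 2.86 and 2.68 CPM in lean and 3.48, 5.27 and 5.78 in obese libraries, and the difference of log2 changes was -1.51 ± 0.38 (SE, adjusted p = 0.0257). The gene overlaps 6430562O15Rik on the other strand. Mrpl28 measured 10.6, 7.10 and 10.5 CPM in lean and 9.41, 8.17 and 8.98 in obese monocyte-derived libraries, which overlapped, and the difference of log2 changes was -0.90 ± 0.25 (SE, adjusted p = 0.0414). None of the 3 stayed called in every fit that left out 1 library. The count was 0 without obese MHCII-low replicate 2 or 3 or obese monocyte-derived replicate 2 or 3, 1 without any of the lean MHCII-low libraries or lean monocyte-derived replicate 1, and 5 without lean monocyte-derived replicate 2. In the same test 20 of the 25 cell cycle genes and 2 of 85 cytosolic ribosomal proteins were called below 0.

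The promoters of the members were read, whether or not a member moved with the diet. Promoter windows from RefSeq (GRCm38.p6), of 250 bases before and 50 after a transcript start, matched 68 of the 77 members and gave 74 windows. Both strands were searched for the letters CCGGAAG (a core of the ETS family, to which the nuclear respiratory factor GABP belongs), for a core of nuclear respiratory factor 1 (NRF1) of 10 letters with 1 free position, for a YY1 core of 11 letters and for the E box CACGTG that MYC binds. The ETS letters stood in 25 windows (33.8%, against 8.86% of all 32851 windows), the NRF1 letters in 13 (17.6%, against 4.60%) and the YY1 letters in 5 (6.76%, against 0.633%). The E box stood in 7 windows (9.46%, against 7.15%). At least 1 of the ETS, NRF1 and YY1 letters was in 37 member windows and in 13% of all windows. Member windows had a median GC content of 58.5%, against 52.7% over all windows. A protein-coding gene on the opposite strand started within 1000 bases of the start of 33 members (42.9%) and of 10.8% of all 21995 protein-coding genes. For 18 members (23.4%, against 6.77%) such a start lay upstream, so that both genes run apart, and for the other 15 (19.5%, against 4.07%) it lay downstream of the member's own start. A match of letters is a description of the window and shows no binding, and these shares were not tested. They were also not compared between members that rose with the diet and members that did not. Members called in no diet comparison held the letters too, such as Mrpl57 and Mrps26 (ETS and NRF1). The 250 bases upstream of the start are shown for 5 of the members described above that rose in both macrophage populations, 5′ to 3′ on the plus strand, with matched letters in capitals. Mrpl34 (chr8:71464676-71464925) and Mrpl52 (chr14:54426659-54426908) hold the ETS letters, which begin 37 and 47 bases before the start, and Mrpl52 holds them once more in the 50 bases after it. Mrpl45 (chr11:97315466-97315715) holds the NRF1 letters, which begin 120 and 38 bases before the start, with another match that ends after the start. Mrps2 (chr2:28467816-28468065) holds none of the 4 motifs in its window. Mrps23 (chr11:88204138-88204387) holds none in the stretch shown but has the ETS letters in the 50 bases after the start, which are not shown.
Mrpl34: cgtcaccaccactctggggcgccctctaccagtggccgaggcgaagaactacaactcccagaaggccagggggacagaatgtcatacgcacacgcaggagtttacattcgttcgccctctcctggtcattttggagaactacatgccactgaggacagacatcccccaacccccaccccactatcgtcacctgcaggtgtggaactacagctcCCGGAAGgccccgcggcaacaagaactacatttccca
Mrpl52: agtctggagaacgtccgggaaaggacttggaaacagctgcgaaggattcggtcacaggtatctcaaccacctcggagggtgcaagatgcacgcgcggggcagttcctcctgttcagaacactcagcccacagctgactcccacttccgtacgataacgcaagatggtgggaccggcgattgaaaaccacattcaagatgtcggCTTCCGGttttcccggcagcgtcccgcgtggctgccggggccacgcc
Mrpl45: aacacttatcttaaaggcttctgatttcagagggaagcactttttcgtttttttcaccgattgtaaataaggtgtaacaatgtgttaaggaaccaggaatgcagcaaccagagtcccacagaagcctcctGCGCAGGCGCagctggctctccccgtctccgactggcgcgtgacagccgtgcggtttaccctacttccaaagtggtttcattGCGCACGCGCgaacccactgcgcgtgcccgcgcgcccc
Mrps2: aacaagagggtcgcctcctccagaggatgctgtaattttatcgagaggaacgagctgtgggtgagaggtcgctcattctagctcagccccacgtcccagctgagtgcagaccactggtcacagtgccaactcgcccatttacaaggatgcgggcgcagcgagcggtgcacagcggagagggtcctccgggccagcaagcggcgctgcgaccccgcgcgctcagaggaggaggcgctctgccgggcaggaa
Mrps23: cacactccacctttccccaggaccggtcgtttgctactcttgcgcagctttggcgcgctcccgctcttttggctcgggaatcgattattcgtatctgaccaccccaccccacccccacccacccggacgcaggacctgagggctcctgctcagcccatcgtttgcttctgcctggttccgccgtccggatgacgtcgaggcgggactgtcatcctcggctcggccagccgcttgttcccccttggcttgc

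Within obese mice, CD11c-positive macrophages had higher fitted levels than CD11c-negative ones for all 77 members, with a median log2 difference of 0.37, against -0.03 over all tested genes. Of these, 3 passed the test, Mrps36, Mrpl18 and Mrps23, against 1.38% of all tested genes called higher, and none was called lower, against 2.11%. All CD11c-positive libraries were above all CD11c-negative ones for 56 members, against 18.5% of all tested genes. An unadjusted p under 0.05 was found for 30 members, which is not set against the share of all tested genes. In the obese groups, libraries with the same number deviated together. With the replicate number as a block and obese groups only, 40 members were called higher, where 14.2% of the genes tested were, and with obese groups only and no block the count was 28, where 7.72% of the genes tested were called higher. DESeq2 on all libraries called 17, with 5.27% of all tested genes higher, whereas each fit that left out 1 of the 6 libraries called 0 or 1 and the fit without the library numbered 2 in every obese group called 0. Of the calls over all genes, 39.6% were higher, against 49.7% with the size factors of DESeq2 and 26.7% with scaling over protein-coding genes. Mrps36 measured 4.10, 4.82 and 5.37 CPM in CD11c-negative and 8.25, 10.5 and 9.67 in CD11c-positive libraries. It was higher in every CD11c-positive library, by 0.99 ± 0.22 (SE, adjusted p = 0.0158) on the log2 scale, and by 1.00 ± 0.12 (SE, adjusted p = 0.000125) with the block. Mrpl18 measured 8.16, 10.2 and 8.99 CPM in CD11c-negative and 13.8, 16.9 and 14.8 in CD11c-positive libraries, without overlap, a log2 difference of 0.74 ± 0.20 (SE, adjusted p = 0.0417). Mrps23 measured 10.4, 11.6 and 10.8 and 15.7, 16.7 and 16.3 CPM, with all 3 CD11c-positive libraries close together, and differed by 0.57 ± 0.14 (SE, adjusted p = 0.0253). Cell cycle genes summed to 1283 ± 114 CPM in CD11c-positive macrophages, with 12 of 25 called higher than in CD11c-negative ones, and adipocyte markers to 185 ± 11.6 against 125 ± 23.7. The sum of 6 monocyte and dendritic cell markers was 664 ± 61 against 270.2 ± 40.1 CPM. This sum includes Itgax, which codes for the CD11c by which these groups were separated, so it does not show whether the other markers differed. The sum of 4 endothelial markers was 131 ± 27.7 against 70.7 ± 23.9 CPM. The part of these cell cycle genes and markers was not tested.

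Between obese CD11c-negative and obese MHCII-low macrophages no member passed edgeR's test, which called 1.19% of all tested genes higher and 1.85% lower. DESeq2 called 0 members, and 1 member had an unadjusted p under 0.05. CD11c-negative libraries were all above MHCII-low ones for 6 members and all below for 8, against 11.8% and 13.2% of all tested genes. With the replicate block and obese groups only, 3 members were higher, Mrpl52 by 0.50 ± 0.11 (SE, adjusted p = 0.0107), Mrpl54 by 0.49 ± 0.11 (SE, adjusted p = 0.0112) and Mrpl39 by 0.34 ± 0.09 (SE, adjusted p = 0.0269), and 1 was lower, Mrpl34, with a difference of -0.39 ± 0.12 (SE, adjusted p = 0.0484). Of all genes in that fit 6.10% were higher and 7.88% lower, so that the members' shares were below those of all genes. These 4 are named after their values were seen.

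Obese monocyte-derived cells had lower levels than obese CD11c-positive macrophages for 33 members and a higher level for 1, against 19.4% and 19.3% of all tested genes called. The median log2 difference was -0.44, against 0.09 over all tested genes. All monocyte-derived libraries were below all CD11c-positive ones for 53 members, against 28.1% of all tested genes, and above for 1, against 29.8%. By class the 33 were 12 of 30 and 9 of 20 large subunit proteins, 7 of 16 and 4 of 10 small subunit proteins, and Mrps36. Mrpl34 measured 11.4, 16.3 and 15.9 CPM in CD11c-positive and 5.37, 5.31 and 6.11 in monocyte-derived libraries. The groups were widely separate, and the log2 difference was -1.37 ± 0.35 (SE, adjusted p = 0.00384). Mrpl51 (-1.17 ± 0.25), Mrps36 (-1.15 ± 0.22), Mrpl22 (-1.12 ± 0.38), Mrps21 (-1.01 ± 0.22) and Mrpl14 (-0.99 ± 0.35) were the other members with the largest negative log2 differences. The member that went the other way was Mrpl39, particular to mitochondria, on chromosome 16 from 84717576 to 84735742 (minus strand), with no exon overlap. It measured 21.5, 19.3 and 17.9 CPM in CD11c-positive and 37.8, 27.7 and 32.2 in monocyte-derived libraries. Every monocyte-derived library was above every CD11c-positive one, and the log2 difference was 0.74 ± 0.17 (SE, adjusted p = 0.00163). This call held in each of the 6 fits without 1 library, while the count of lower members was 19 without CD11c-positive replicate 2, 21 without CD11c-positive replicate 3, 18 without monocyte-derived replicate 2 and 11 without the library numbered 2 in every obese group. Scaling over protein-coding genes raised the median over all genes by 0.14 and left 25 members lower, and 61.8% of all calls were then higher, against 49.8%. All 25 cell cycle genes and 11 of the 12 tested mRNAs of the mitochondrial genome were also lower in monocyte-derived cells.

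**Figure D4:**
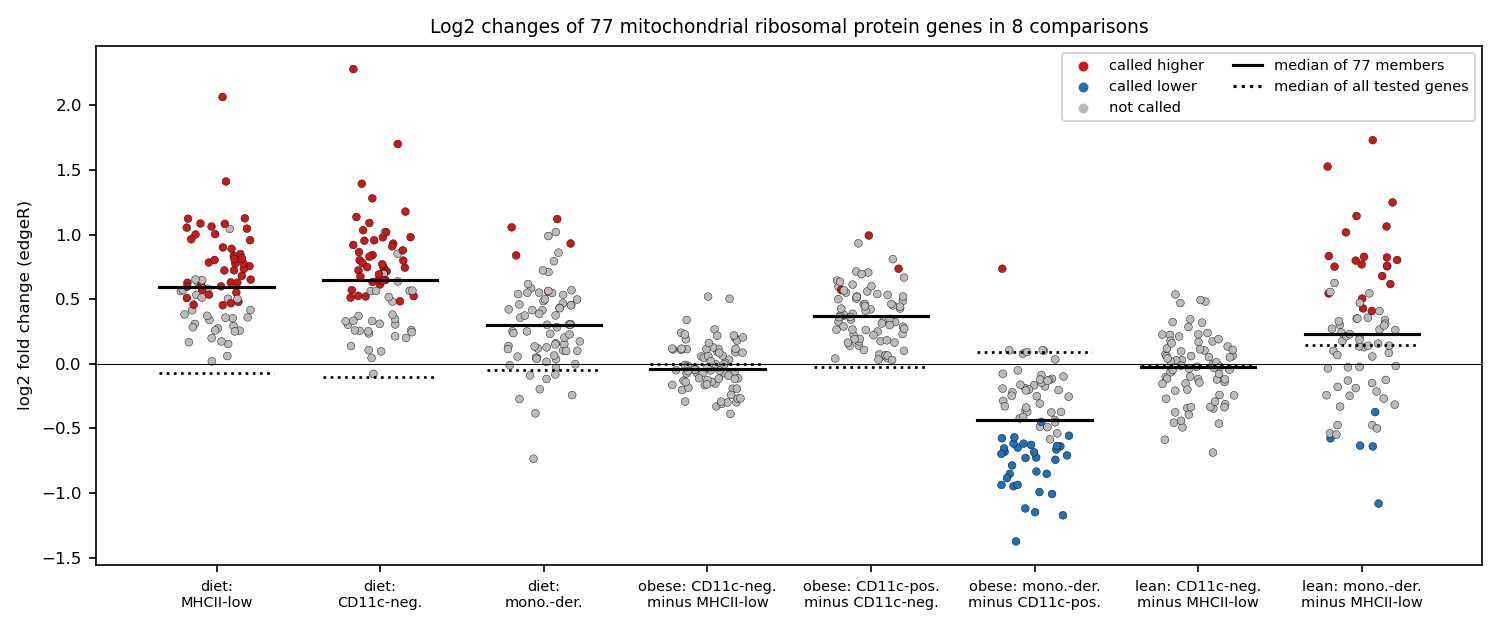
Fitted log2 changes of the 77 members in 8 comparisons; each point is 1 gene, called members are red (higher) or blue (lower), the solid line is the median of the members and the dotted line that of all tested genes. The points lie almost wholly above 0 for the diet in MHCII-low and CD11c-negative macrophages (medians 0.60 and 0.65) and mostly below 0 for obese monocyte-derived cells against CD11c-positive macrophages (median -0.44).

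In lean mice, 0 members passed edgeR's test between CD11c-negative and MHCII-low macrophages, which called 1.05% of all tested genes higher and 0.253% lower. 5 members had an unadjusted p under 0.05, and DESeq2 called 1 lower. CD11c-negative libraries were all above MHCII-low ones for 6 members and all below for 4, against 10.3% and 8.79% of all tested genes. Lean monocyte-derived cells differed more: 21 members were higher and 5 lower than in lean MHCII-low macrophages. The share called higher, 27.3%, was near that of all tested genes, 25%, while the share called lower was 6.49%, against 21% of all tested genes. The median log2 difference was 0.23, against 0.15 over all tested genes. Monocyte-derived libraries were all above for 23 members and all below for 2, against 23.8% and 21.8% of all tested genes. Mrpl39 measured 9.87, 14.5 and 10.5 CPM in MHCII-low and 36.3, 42.6 and 36.6 in monocyte-derived libraries. The lowest monocyte-derived library was more than double the highest MHCII-low one, and the log2 difference was 1.73 ± 0.17 (SE, adjusted p = 6.28e-08). Mrps27 differed by 1.53 ± 0.27 (SE, adjusted p = 0.000112), Mrpl44 by 1.25 ± 0.34 (SE, adjusted p = 0.00528), Mrpl52 by 1.14 ± 0.23 (SE, adjusted p = 0.00037) and Mrpl47 by 1.06 ± 0.27 (SE, adjusted p = 0.00268). Mrps7, a small subunit protein with a bacterial counterpart, measured 9.09, 6.99 and 9.88 and 17.6, 16.9 and 18.1 CPM and differed by 1.02 ± 0.16 (SE, adjusted p = 2.88e-05). Mrpl41, particular to mitochondria, was lower: it measured 6.71, 5.82 and 7.29 CPM in MHCII-low and 2.43, 3.38 and 3.60 in monocyte-derived libraries, without overlap, a log2 difference of -1.08 ± 0.19 (SE, adjusted p = 0.000104). The other lower members were Mrpl27 (-0.64), Mrpl16 (-0.63), Mrps26 (-0.58) and Mrpl3 (-0.37), and Mrpl41 was the lower member called in every fit without 1 library. The count of lower members was 3 without lean MHCII-low replicate 3, 11 without lean monocyte-derived replicate 2 and 2 without lean monocyte-derived replicate 3. For comparison, 72 of 85 cytosolic ribosomal proteins were higher in lean monocyte-derived cells, and 8 of the 12 tested mitochondrial mRNAs were lower.

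Some proteins of the mitochondrial ribosome carry other symbols. Of the 5 tested, 3 rose with the diet in MHCII-low macrophages and 4 in CD11c-negative ones, and none was called in monocyte-derived cells. Chchd1 changed by 0.91 ± 0.30 (SE, adjusted p = 0.0247) in MHCII-low and 0.98 ± 0.29 (SE, adjusted p = 0.0155) in CD11c-negative macrophages. Aurkaip1 changed by 0.67 and 0.65, and Ptcd3 by 0.44 and 0.41. Gadd45gip1 was called in CD11c-negative macrophages (0.82) and missed the threshold in MHCII-low ones (0.62). Dap3, a GTP-binding protein of the small subunit, was called in neither (0.29 and 0.32).

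Among 26 factors for assembly and ribosomal RNA modification, 9 rose and 1, Mrm2, fell in each of both macrophage populations, and 2 rose in monocyte-derived cells. Of all tested genes 16.8% were called higher in each macrophage population and 7.44% in monocyte-derived cells. The RNA helicase Ddx28, which acts in large subunit assembly, measured 2.19, 2.57 and 2.42 CPM in lean and 7.07, 11.4 and 8.71 in obese MHCII-low libraries, and 2.97, 2.67 and 1.88 and 10.5, 12.6 and 10.1 in lean and obese CD11c-negative libraries. No obese library overlapped with a lean one, and the log2 changes were 1.92 ± 0.21 (SE, adjusted p = 2.27e-06) and 2.14 ± 0.21 (SE, adjusted p = 5.83e-07). In monocyte-derived cells Ddx28 changed by 0.54 ± 0.20 (SE, adjusted p = 0.0628). Of 14 translation factors, 9 rose in MHCII-low macrophages, 6 in CD11c-negative macrophages and 1 in monocyte-derived cells, and none fell. Tufm, the elongation factor that brings aminoacyl-tRNA to the ribosome, measured 10.3, 6.70 and 9.19 CPM in lean and 14.5, 20.7 and 17.4 in obese MHCII-low libraries, without overlap, and rose by 1.00 ± 0.19 (SE, adjusted p = 0.000816) there and by 1.00 ± 0.19 (SE, adjusted p = 0.000616) in CD11c-negative macrophages on the log2 scale. Oxa1l, which inserts new proteins into the inner membrane, changed by 0.64, 0.67 and 0.46 in MHCII-low, CD11c-negative and monocyte-derived cells, and was called in all 3.

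Of 20 genes for mitochondrial aminoacyl-tRNA synthesis, 4, 3 and 2 rose and 0, 1 and 1 fell in MHCII-low, CD11c-negative and monocyte-derived cells. Of all tested genes 16.8%, 16.8% and 7.44% were called higher and 13.8%, 15.6% and 9.76% lower. The shares of these 20 genes that rose were thus near those of all genes. The gene that fell in monocyte-derived cells was Lars2, with 7674, 836 and 11079 CPM in lean and 1646, 1919 and 1453 in obese libraries. Lean replicate 2 was below all obese libraries and the other lean libraries were far above, and the log2 change was -1.96 ± 0.56 (SE, adjusted p = 0.0257). As CPM of the library total, all 20 genes summed to 7842, 1020 and 11646.5 in these lean libraries, so Lars2 made up most of the sum. Lean replicates 1 and 3 also had the lowest shares of counts in protein-coding genes of the series, 73.7% and 67.1%. The part of this was not tested. Of 18 genes for maintenance of mitochondrial DNA, its transcription and RNA stability, 7 rose in MHCII-low macrophages and 7 in CD11c-negative macrophages, where Mgme1, Polg, Polg2 and Twnk fell. The mitochondrial RNA polymerase Polrmt changed by 0.77 ± 0.19 (SE, adjusted p = 0.00608) and 0.81 ± 0.19 (SE, adjusted p = 0.00351) in these populations. Tfam, which packs mitochondrial DNA and takes part in its transcription, was not called (0.27 and 0.30), nor was Tfb1m (0.51 and 0.15). The mRNAs that this machinery makes were seldom called: of 12 tested, 0 were called in MHCII-low macrophages, mt-Co2 rose in CD11c-negative macrophages (0.33) and mt-Nd3 fell in monocyte-derived cells (-0.81).

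Regulators of nuclear genes for mitochondria were mostly not called. Nrf1, Gabpa, Myc and Ppargc1b had log2 changes of -0.16, 0.17, 0.21 and 0.07 in MHCII-low and -0.01, 0.03, 0.34 and 0.10 in CD11c-negative macrophages, none of which passed the test. Esrra rose by 0.54 and 0.46. Mycn in MHCII-low macrophages (-2.27) and Ppargc1a in monocyte-derived cells (-2.06) fell. Pprc1, a coactivator related to PGC-1, went against the members. It measured 170.3, 149 and 165 CPM in lean and 135, 107 and 99.9 in obese MHCII-low libraries, and 185, 209.5 and 182 and 136, 124 and 117 in lean and obese CD11c-negative libraries. All obese libraries were lower, and Pprc1 fell in both, with log2 changes of -0.50 ± 0.12 (SE, adjusted p = 0.00553) and -0.61 ± 0.12 (SE, adjusted p = 0.00102). Cytosolic ribosomal proteins, tested as 85 genes, were higher for 47 and lower for 2 in MHCII-low macrophages, higher for 57 in CD11c-negative macrophages and higher for 1 in monocyte-derived cells.

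**Figure D5:**
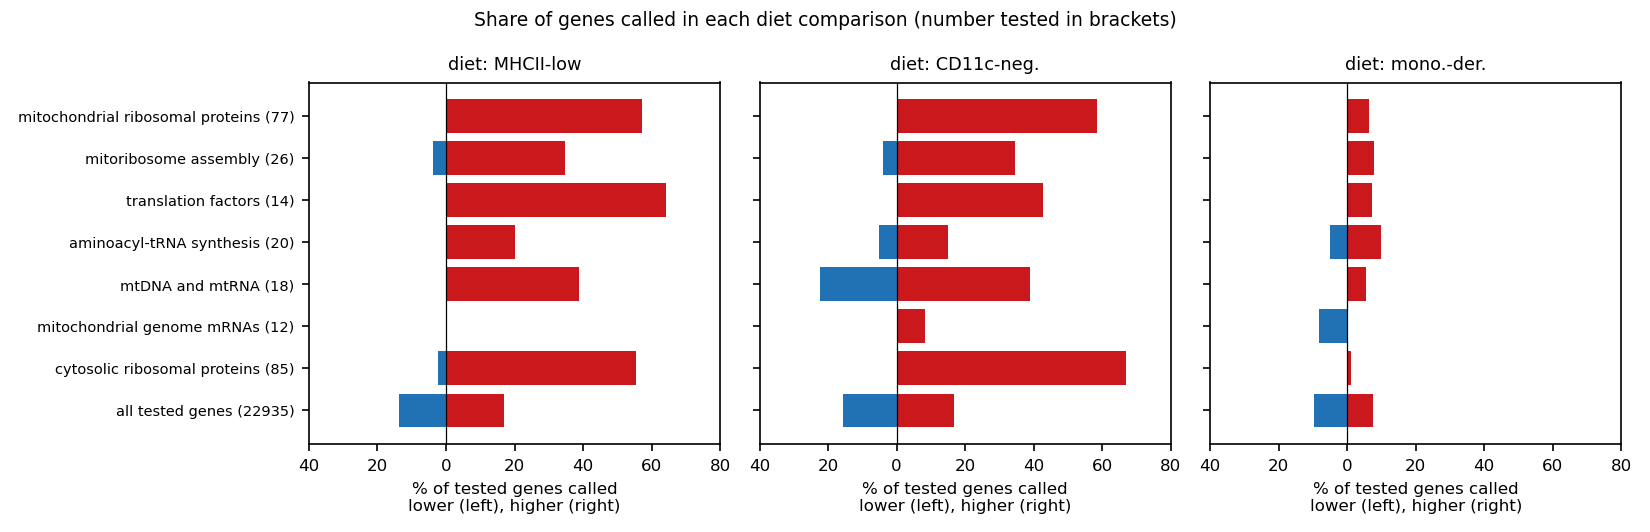
Percent of each gene list called higher or lower in obese mice in the 3 populations, with the same share over all tested genes. Of the mitochondrial ribosomal proteins 57.1% and 58.4% are higher in MHCII-low and CD11c-negative macrophages, against 16.8% of all tested genes in each, and mRNAs of the mitochondrial genome have 0 or 1 of 12.

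Marker sums of other cell types also differed with the diet. From lean to obese, the sum of 6 T and NK cell markers averaged 9.87 and 2.32 CPM in MHCII-low macrophages, 4.95 and 1.79 in CD11c-negative macrophages, and 9.16 and 5.58 in monocyte-derived cells. The sum of 4 mesothelial markers averaged 23.9 and 5.97, 17.6 and 7.75, and 9.79 and 6.37 CPM in the same order. The sum of 8 macrophage markers averaged 7986 and 10819 CPM in lean and obese MHCII-low macrophages, 7392 and 9917 in CD11c-negative ones, and 3602 and 4118 in monocyte-derived cells. The part of these cells in the members' changes was not tested.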

How the data were processed

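RNA was measured in 21 libraries of sorted adipose tissue myeloid cells, in 7 groups of 3. Per the labels, RNA came from a PicoPure kit and was amplified with NuGen Ovation reagents. The authors deposited read counts for 54532 genes. Per the submitters' processing notes, GRCm38 was the genome build and the tools were STAR 2.6.0a, featureCounts, Subread 1.4.6-p5, bcl2fastq and Trim Galore 0.4.5, with the strand setting not given in the sources used here. GENCODE M21 names were found for 53315 gene IDs by ID and version and for 54495 by ID alone, and 37 IDs stayed unnamed.

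Counts were analysed with edgeR 4.0.16 in R 4.3.3. filterByExpr left 22935 genes, libraries were scaled by TMM, and 7 group means were fitted over all 21 libraries (14 residual degrees of freedom, common dispersion 0.0502). Genes were called at an adjusted p under 0.05 in the robust quasi-likelihood F test, with Benjamini-Hochberg adjustment over all 22935 genes. CPM of single genes are TMM-scaled, summed levels are CPM of the library total, and a standard error is the size of the log2 change divided by the square root of F. Totals of 11245851 to 35568948 counts set the precision. Counting error does not cover PCR copies, which are not independent molecules. The script was tested on simulated data.

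The members, gene lists, markers and motifs were chosen with earlier results of these data known. Genes were named by a rule: the 12 members called with the largest log2 change in each direction in each diet comparison, 6 in the other comparisons, those called in a difference of diet effects, the extremes of level and range, the 2 called genes with the smallest p of each other list, and fixed names. Alternatives were DESeq2 1.42.0 and its size factors, protein-coding scaling, no filter, a replicate block, only the groups compared and each library left out. Fits on obese groups only, with and without the block, and without the obese libraries numbered 2 were chosen after seeing the data.

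Whether equal replicate numbers pair libraries was checked by the correlation of deviations from group means over 7909 genes. In the obese groups all 18 same-numbered pairs correlated above 0.1, from 0.108 to 0.778. In the lean groups 4 of 9 pairs did by title number and 5 of 7 (the lowest at 0.070) by the number in the description, and across diets 4 of 36 and 7 of 28. Only in the obese groups did every pair exceed 0.1, so the blocked values beside the results are those of the obese groups, and blocks over all groups, by either number, were alternatives.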

Additional observations from a re-analysis of the deposited data

Results flagged for a closer look

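For 3 members the effect of the diet differed between populations by a test of the difference itself, the diet effect in monocyte-derived cells minus that in MHCII-low macrophages, in edgeR's quasi-likelihood test. These are 3 of 77 members, where 2.43% of all tested genes were called in this direction. None of them was called in every fit that left out 1 library, and 0 members were called with only the groups compared or without the obese libraries numbered 2. The difference was -1.03 ± 0.20 on the log2 scale for Mrps23 (adjusted p = 0.00493), -1.51 ± 0.38 for Mrps27 (adjusted p = 0.0257) and -0.90 ± 0.25 for Mrpl28 (adjusted p = 0.0414). The diet effect itself was 1.06 in MHCII-low and 0.04 in monocyte-derived cells for Mrps23, 0.78 and -0.74 for Mrps27, and 0.81 and -0.08 for Mrpl28. Mrps23 and Mrpl28 had overlapping diets in monocyte-derived cells. All 3 lean monocyte-derived libraries enter these differences, and those libraries had 314 to 1172 CPM in olfactory and vomeronasal receptor genes, whose part was not tested.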

How the results depend on the processing

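Depth limits the weakest members most: Mrpl44 held 7 counts in lean MHCII-low replicate 2, and Mrpl22 held 6 in lean CD11c-negative replicate 3. In lean monocyte-derived replicate 3, 5 members were under 10 counts. Of 1231 alternative values of the 86 log2 changes of named members and list genes, 1003 kept direction and call, 228 kept the direction and missed the threshold, and 0 changed direction. Leaving out the filter moved the median over all genes by -0.29 for the diet in MHCII-low macrophages and by -0.41 in monocyte-derived cells. The cause of the changes in counts below was not tested. The counts are of members alone and do not show whether the calls over all genes changed alike between the fits.

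Leaving out each library in turn gave 22 to 39 members higher with the diet in MHCII-low macrophages (44 with all libraries), 27 to 39 in CD11c-negative macrophages (45), and 1 to 27 higher (5) and 0 to 1 lower (0) in monocyte-derived cells. It gave 0 to 5 members with a lower diet effect in monocyte-derived than in MHCII-low cells (3), 0 to 1 higher in obese CD11c-positive than CD11c-negative macrophages (3), 18 to 32 lower in obese monocyte-derived cells than in CD11c-positive macrophages (33), and 15 to 26 higher (21) and 2 to 11 lower (5) in lean monocyte-derived than MHCII-low cells.

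In the diet comparison of monocyte-derived cells the count of higher members was 3 with DESeq2's size factors, 14 with no filter, 2 with a replicate block by description number and 0 with only the groups compared, and 1 member was lower with DESeq2 and with its size factors. The lower diet effect in monocyte-derived than MHCII-low cells was called for 6 members by DESeq2, 6 with the description block, 1 with no filter and 0 with only the groups compared. For obese CD11c-positive against CD11c-negative macrophages the count of higher members was 6 with DESeq2's size factors, 5 with no filter, 17 by DESeq2, 10 with the description block, 26 with only the groups compared, 28 with obese groups only and 40 with obese groups only and the block by title number. For obese CD11c-negative against MHCII-low macrophages it was 1 with only the groups compared, 2 with obese groups only, and 3 higher and 1 lower with obese groups and the block. In lean mice DESeq2 called 1 member lower in CD11c-negative than MHCII-low macrophages. For lean monocyte-derived against MHCII-low cells, only the groups compared gave 11 higher and 1 lower, and scaling over protein-coding genes or the description block gave 3 lower. Without the libraries numbered 2 in every obese group the counts were 17 and 27 higher for the diet in MHCII-low and CD11c-negative macrophages, 2 in monocyte-derived cells, 0 for the difference of diet effects, 0 for CD11c-positive against CD11c-negative macrophages and 11 lower for monocyte-derived cells against CD11c-positive macrophages. Lean libraries with equal description numbers mostly deviated together (5 of 7 pairs above 0.1, against 2 of 20 with unequal numbers), and of pairs with equal title numbers 4 of 9 did, against 3 of 18. The replicate block by title number left every count of members within 1.5 times that without it.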
